A study of Rattus norvegicus with 6 samples.

Results

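FOXO transcription factors and the muscle atrophy genes that work with them were followed in rat H9C2 cells after knockdown of PUM2. The set was defined by symbol and named 7 genes: Foxo1, Foxo3, Foxo4, Fbxo32, Trim63, Klf15 and Mstn. Of these, 6 were found among the 19825 genes with counts. Mstn, which encodes myostatin, matched no row by its current or older symbol and was not analysed here. H9C2 is a line of myoblasts from embryonic rat heart, which the labels call cardiomyocytes. All 6 libraries came from this line, and the labels name no other treatment that the groups share: 3 libraries were from cells transfected with an siRNA, a small interfering RNA, that targets PUM2 (siPUM2 1, 2 and 3), and 3 were from controls described as given empty vector (NC 1, 2 and 3). Whether the control also received a non-targeting small interfering RNA is not stated. Neither the time after transfection nor the use of separate cultures is given, so the spread behind each p-value is that of these libraries and may be technical.

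FOXO proteins are forkhead transcription factors that insulin and growth factor signalling keep out of the nucleus, because the kinase AKT phosphorylates them. When that signal falls they enter the nucleus, and in muscle they switch on ubiquitin ligases and autophagy genes that break down protein. Fbxo32 encodes atrogin-1 and Trim63 encodes MuRF1, the muscle ubiquitin ligases whose messages mark wasting muscle. Klf15 encodes a zinc-finger factor that glucocorticoids induce and that acts with FOXO factors on the same ligase genes, and myostatin is a secreted inhibitor of muscle growth that signals through activin receptors.

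The Trim63 promoter is shown because the documented inputs to this gene can be read in its letters and because Trim63 was the member whose change was measured most firmly. A forkhead element, GTAAACA or on the other strand TGTTTAC, is a sequence that FOXO proteins bind, and the only forkhead letters searched here. Dimers of the glucocorticoid receptor bind a pair of inverted arms, searched here as GAACANNNTGTTC, which reads the same on both strands. In the sequence below, from RefSeq on build GRCr8 (chr5:151816986-151817235, plus strand, the 250 bases before the start of the gene), capitals mark both: the inverted arms first, and then the longer forkhead element GTAAACAA on its opposite strand (TTGTTTAC), which directly follows and contains the shorter one.

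Trim63: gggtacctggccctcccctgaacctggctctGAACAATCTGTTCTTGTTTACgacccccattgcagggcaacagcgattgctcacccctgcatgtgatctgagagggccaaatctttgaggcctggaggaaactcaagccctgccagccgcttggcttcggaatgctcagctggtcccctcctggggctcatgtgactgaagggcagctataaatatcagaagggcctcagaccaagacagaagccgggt

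Searched on both strands, the forkhead letters GTAAACA were in 892 of 27457 rat promoter windows of the same length (3.25%), and the longer GTAAACAA in 267 (0.972%). The inverted arms were in 11 windows (0.0401%), and 1 window, that of Trim63, held the arms together with the shorter forkhead letters. The arms began 219 bases and the forkhead element 206 bases before the start. These motifs were chosen with the Trim63 window in view, so the counts describe it and test nothing. Windows of Foxo1, Foxo4 and Klf15 were also read, and none of the motifs was in them. Foxo3, Fbxo32 and Mstn had no entry. Of the 31 windows matched for 40 genes known to be induced by FOXO, 1, that of Bcl2l11, held GTAAACA. Other forkhead sequences were not searched, so a window without these letters is not shown to lack a FOXO site.

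The knockdown and the make-up of the libraries were checked first. The level of Pum2 was 223, 228 and 225 CPM (counts scaled to a common library size) in NC 1, 2 and 3, against 127, 126 and 120 CPM in siPUM2 1, 2 and 3, which left 0.551 of the control level. The libraries held 27704702 to 30579237 counts, so that 1 count was worth 0.0326 to 0.0360 CPM. Within a group, libraries were further apart than counting error allows (a chi-square of 2.07 to 3.80 per degree of freedom), and the highest values within a group were those of siPUM2 3. Several sarcomere genes of working heart muscle were near 0 (Myl2 at 0, Myh7 at 0.0349 and Tnni3 at 0.0928 CPM in NC), whereas the myoblast genes Myod1 (81.3 CPM in NC) and Cdh15 (215 CPM) were well measured. Of 13 cardiomyocyte markers matched, 4 were above 1 CPM in NC, among them Tnnt2, of cardiac troponin T, at 298 CPM and the cardiac factors Nkx2-5 (19.7 CPM) and Gata4 (10.4 CPM), so that the cells carried myoblast markers together with some cardiac ones. Endothelial and adipocyte markers summed to at most 2.64 and 0.925 CPM in any library. The macrophage list summed to 36.8 to 40.8 CPM, nearly all of it Cd14, with Csf1r at 0.529 CPM in NC. In cultured cells measured in bulk, fewer cells of a type and less RNA per cell cannot be told apart.

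Both muscle ubiquitin ligase genes were higher when PUM2 was knocked down, while the FOXO factors and Klf15 did not pass the test. Fbxo32 was 1.63-fold and Trim63 1.21-fold higher in siPUM2, and for each the 3 knockdown libraries all lay above the 3 controls. Foxo1, Foxo3, Foxo4 and Klf15 had fold changes between 1.01 and 1.08. In the quasi-likelihood test of edgeR, adjusted over 12985 genes after Benjamini and Hochberg, 2 of the 6 members were called higher at an adjusted p under 0.05 and none lower. Across all genes tested, 15.1% were called higher and 28.4% were called in either direction, so a count of 2 in 6 is near the background and is not a result about the set. At an unadjusted p under 0.05 the same 2 members passed.

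**Figure D1:**
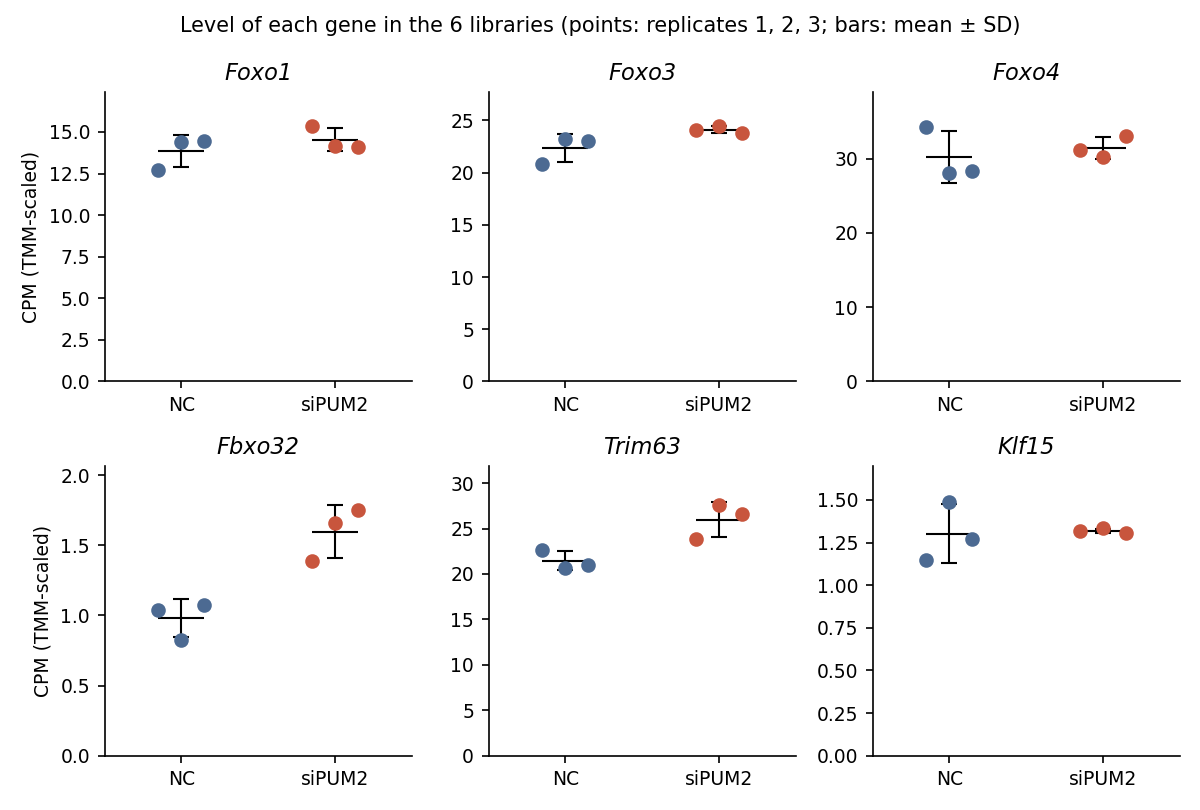
Level of each gene in CPM (y axis, from 0) in the 3 NC and 3 siPUM2 libraries; points are libraries in the order of replicates 1 to 3 and black bars are the mean ± SD of 3. The siPUM2 points of Fbxo32 and Trim63 lie above all NC points, those of Foxo3 do so by a small margin, and those of Foxo1, Foxo4 and Klf15 mix with the controls.

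Trim63, the gene of MuRF1, which tags myosin and other thick-filament proteins for breakdown, lies on chromosome 5. Its level was 22.6, 20.7 and 21.0 CPM in NC 1, 2 and 3, from 632, 625 and 645 counts, and at 23.8, 27.6 and 26.6 CPM in siPUM2 1, 2 and 3, from 669, 765 and 775 counts. The groups did not overlap, but siPUM2 1 lay much closer to NC 1 than the other knockdown libraries did. The mean went from 21.5 ± 1.02 to 26.0 ± 1.95 CPM (SD, n = 3 each), a log2 fold change of 0.28 ± 0.0631 (SE; 95% interval 1.11-fold to 1.33-fold) with an adjusted p of 0.00122 (edgeR). Of all genes tested, 9.66% had a larger log2 fold change. Leaving out any of the 6 libraries kept the call, with log2 fold changes from 0.23 (without siPUM2 2) to 0.34 (without siPUM2 1) and adjusted p from 0.000141 to 0.0129.

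Fbxo32, the gene of atrogin-1, the substrate-binding part of a ubiquitin ligase complex, lies on chromosome 7 and rested on few reads. It had 29, 25 and 33 counts in NC 1, 2 and 3 (1.04, 0.828 and 1.08 CPM) and 39, 46 and 51 counts in siPUM2 1, 2 and 3 (1.39, 1.66 and 1.75 CPM). Every knockdown library was above every control. The group totals were 87 and 136 counts. The mean went from 0.981 ± 0.133 to 1.60 ± 0.189 CPM (SD, n = 3 each), a log2 fold change of 0.70 ± 0.242 (SE) whose 95% interval ran from 1.16-fold to 2.30-fold (adjusted p = 0.0285, edgeR). Of all genes tested, 1.27% had a larger log2 fold change. The call was not stable. It was lost with DESeq2 (adjusted p = 0.0965) and without NC 1 (0.0557), NC 2 (0.117), siPUM2 2 (0.0755) or siPUM2 3 (0.0998), although the direction stayed and the log2 fold change was 0.59 to 0.80 over the 6 left-out libraries. Whether Fbxo32 rose more than Trim63 was not tested, and their intervals overlap.

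**Figure D2:**
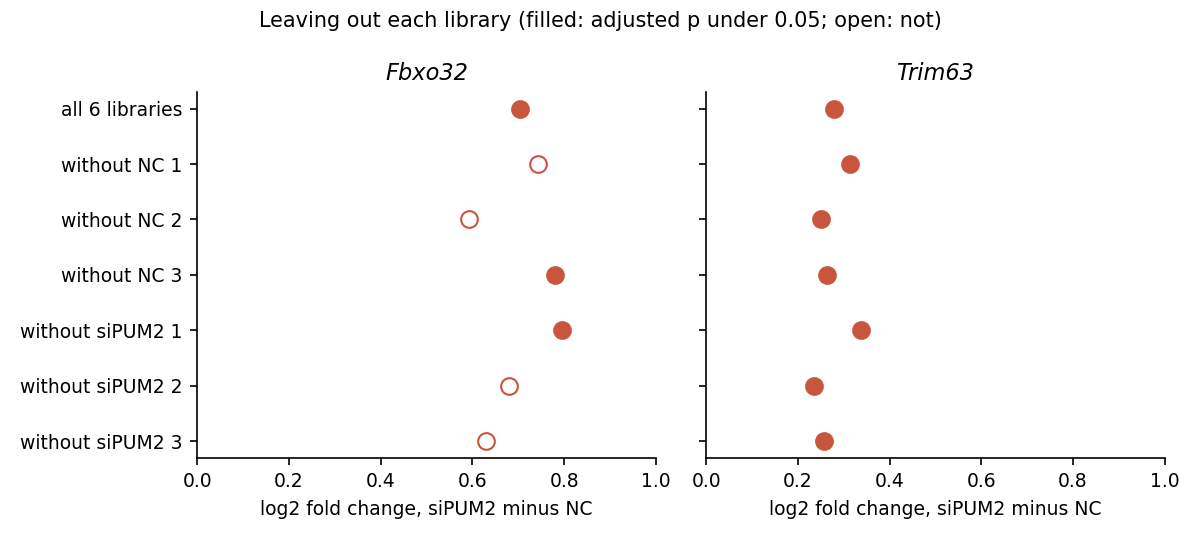
Log2 fold change (x axis, siPUM2 minus NC) of Fbxo32 and Trim63 with all 6 libraries and with each library left out (rows); filled points have an adjusted p under 0.05. All values are above 0, and those of Trim63 are all filled, whereas 4 of the 6 left-out values of Fbxo32 are open.

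The FOXO factor genes were measured from more reads than Fbxo32 and showed no change that passed. Foxo1 (chromosome 2), the member best known for insulin control of liver and muscle genes, was at 12.7, 14.4 and 14.5 CPM in NC 1, 2 and 3, against 15.3, 14.2 and 14.1 CPM in siPUM2 1, 2 and 3. The groups overlapped, and both the lowest value, in NC 1, and the highest, in siPUM2 1, were of the libraries numbered 1. Its log2 fold change was 0.07 ± 0.0740 (SE; 95% interval 0.942-fold to 1.16-fold; adjusted p = 0.557, edgeR).

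Foxo3 (chromosome 20), the factor most tied to induction of atrogin-1 and of autophagy genes in muscle, was at 20.8, 23.2 and 23.0 CPM in NC 1, 2 and 3. It was at 24.1, 24.5 and 23.8 CPM in siPUM2 1, 2 and 3, so that the groups did not overlap, with NC 1 apart from the other controls. Its log2 fold change of 0.11 ± 0.0598 (SE; 95% interval 0.991-fold to 1.17-fold) did not pass (adjusted p = 0.184, edgeR), and without NC 1 it was 0.06. In all, 3 of the 6 members had every siPUM2 library above every NC library, and among all genes tested this share was 20.7% (39.9% without overlap in either direction).

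Foxo4 (chromosome X), another factor of the family that AKT controls in the same way, was at 34.3, 28.1 and 28.4 CPM in NC 1, 2 and 3, against 31.2, 30.2 and 33.1 CPM in siPUM2 1, 2 and 3. Here NC 1 was the highest of all libraries and the other controls the lowest. The log2 fold change was 0.06 ± 0.0663 (SE; 95% interval 0.949-fold to 1.15-fold; adjusted p = 0.545, edgeR), and 0.16 without NC 1 (adjusted p = 0.0653). The intervals leave room for rises of up to 1.16-fold in Foxo1, 1.17-fold in Foxo3 and 1.15-fold in Foxo4. Phosphorylation and location of the proteins, by which FOXO activity is set, were not measured.

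Klf15 (chromosome 4) was close to the limit of what these libraries can compare. It had 32, 45 and 39 counts in NC 1, 2 and 3 and 37, 37 and 38 counts in siPUM2 1, 2 and 3. The NC libraries lay on both sides of the siPUM2 libraries, at 1.15, 1.49 and 1.27 CPM against 1.32, 1.33 and 1.31 CPM. The log2 fold change was 0.01 ± 0.234 (SE; adjusted p = 0.977, edgeR), with a 95% interval from 0.725-fold to 1.41-fold. Its sign turned without NC 1 (-0.07) or NC 3 (-0.0052), so no direction was detectable at this depth.

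**Figure D3:**
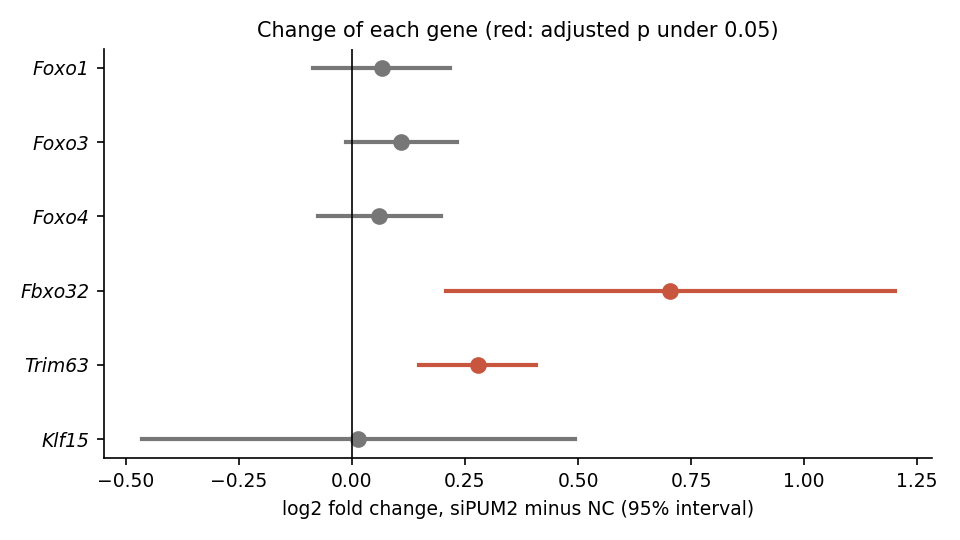
Log2 fold change (x axis, siPUM2 minus NC) of the 6 members with 95% intervals from the edgeR fit; red marks an adjusted p under 0.05. The intervals of Fbxo32 and Trim63 lie above 0, those of Foxo1, Foxo3 and Foxo4 are narrow and include 0, and those of the low genes Fbxo32 and Klf15 are the widest.

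Levels of different genes were compared per length, in the authors' FPKM (fragments per kilobase of transcript, scaled to the depth). Trim63 was the highest member, at 9.57 to 12.7 FPKM over the 6 libraries, above Foxo4 at 6.86 to 8.37 FPKM with no overlap. Foxo3 followed at 2.64 to 3.10 FPKM, also clear of its neighbours. Foxo1 (1.15 to 1.38 FPKM) and Fbxo32 (0.70 to 1.47 FPKM) did not differ beyond their spread over all libraries. In NC every Fbxo32 value (0.87, 0.70 and 0.91 FPKM) was below every Foxo1 value (1.15, 1.30 and 1.31 FPKM), while in siPUM2 the genes overlapped (1.17, 1.39 and 1.47 against 1.38, 1.27 and 1.27 FPKM). Klf15 was lowest, at 0.30 to 0.39 FPKM. Among the ligases, MuRF1 message thus stood far above atrogin-1 message, with means of 12.0 ± 0.889 and 1.34 ± 0.155 FPKM in siPUM2 (SD, n = 3) and of 9.93 ± 0.471 and 0.827 ± 0.112 FPKM in NC.

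**Figure D4:**
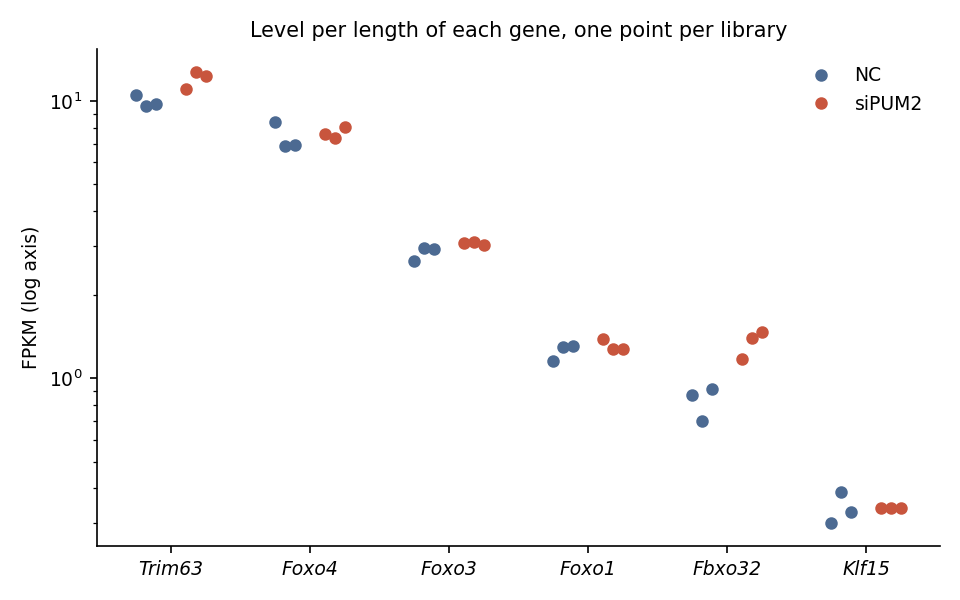
Level per length of each member in FPKM (log y axis), 1 point per library, NC in blue and siPUM2 in red, ordered by the mean over 6 libraries. Trim63 is highest at 9.57 to 12.7 FPKM and Klf15 lowest at 0.30 to 0.39 FPKM, and only Foxo1 and Fbxo32 overlap among neighbours.

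Genes whose log2 CPM followed the called members most closely over the 6 libraries were taken by Pearson's r among genes of at least 5 CPM. For Fbxo32 they were Wdr19, a transport protein of cilia (r = 0.995), and Vamp7, a vesicle fusion protein (r = 0.992). For Trim63 they were Bptf, a subunit of a chromatin remodeller (r = 0.994), and Tbcb, a tubulin folding cofactor (r = 0.992). These are descriptions over 6 points that share libraries, depth and the group difference. Their own log2 fold changes were smaller than those of the ligases, from 0.09 (Tbcb) to 0.25 (Wdr19), and only Vamp7 was called (0.17, adjusted p = 0.00993, edgeR).

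Markers of the muscle state moved in both directions beside the ligases. Of 8 skeletal myoblast markers tested, 3 were higher and 2 lower in siPUM2. The myoblast cadherin Cdh15 (log2 fold change 0.20), the fusion protein gene Mymk (0.17) and desmin, Des (0.17), rose, and the differentiation factor gene Myog (-1.12) and embryonic myosin Myh3 (-0.93) fell. The calls of Cdh15 and Myog held without any library, that of Myh3 was lost without NC 1 (adjusted p = 0.106, edgeR), that of Des without NC 2, NC 3 or siPUM2 2 (highest adjusted p = 0.161) and that of Mymk without NC 1, NC 3, siPUM2 2 or siPUM2 3 (highest 0.135). The well-measured Myod1 (0.05) and Acta1 (0.02) were not called. The summed level of the 9 matched markers was 382 to 391 CPM in NC and 401 to 426 CPM in siPUM2, and Chrna1 and Ckm were each under 1 CPM. Cdh15 was the largest part of that sum and went from 215 to 247 CPM, so the sums do not show a general rise of the markers. Of 13 matched cardiomyocyte markers 5 were tested, and 1 rose: Tnnt2, the cardiac troponin T gene, which embryonic and regenerating skeletal muscle also uses, went from 298 to 474 CPM (log2 fold change 0.67, adjusted p = 2.86e-12, edgeR). That list summed to 306 to 364 CPM in NC and 469 to 522 CPM in siPUM2, mostly Tnnt2, so the sums largely restate that gene. Of the others tested, Nkx2-5 (-0.14), Gata4 (-0.12), Myh6 (-0.58) and Nppb (0.34) were not called. Of 7 matched fibroblast markers, Thy1 rose (0.31) and Postn (-0.63) and Col1a1 (-0.08) fell, while Pdgfra, Dpt, Lum and Dcn were at or near 0. Their sums were 9147 to 9280 CPM in NC and 8714 to 9039 CPM in siPUM2, mostly Col1a1 (8452 CPM in NC). The part of these shifts in the change of Fbxo32 and Trim63 was not tested.

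Among genes that control FOXO proteins, most messages did not pass and those of AMP-activated kinase rose. Of 36 listed genes of insulin, PI3K and AKT signalling and other FOXO regulators, 35 were tested, of which 3 were higher, 3 lower and 29 not called (17.1% called, against 28.4% of all genes). Their median log2 fold change was -0.0045, against 0.0011 over all genes tested. Prkaa2, a catalytic subunit of the energy-sensing kinase that phosphorylates FOXO3 and activates it, was at 14.0, 15.8 and 14.7 CPM in NC 1, 2 and 3, against 24.2, 24.9 and 25.0 CPM in siPUM2 1, 2 and 3. The groups were far apart, and the mean rose 1.66-fold (14.8 ± 0.876 in NC, 24.7 ± 0.445 CPM in siPUM2, SD, n = 3; adjusted p = 3.67e-10, edgeR).

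The other catalytic subunit, Prkaa1, rose 1.21-fold (34.0 ± 0.697 in NC, 41.3 ± 1.73 CPM in siPUM2, adjusted p = 0.000239, edgeR). Of the kinases that hold FOXO proteins in the cytoplasm, Sgk1 and Akt2 fell: Sgk1, a relative of AKT that phosphorylates FOXO3, went from 144 ± 4.66 to 126 ± 5.52 CPM (log2 fold change -0.19, adjusted p = 3.71e-05, edgeR), and Akt2 from 113 ± 1.34 to 100.5 ± 2.78 CPM (-0.16, adjusted p = 8.41e-05). Akt1 was at a log2 fold change of 0.0022 (317 CPM in both groups, adjusted p = 0.963), and Sgk3 (-0.18) was not called either. Named after their values were seen, the remaining called genes were the receptor Igf1r (0.14, higher) and the nuclear export receptor Xpo1 (-0.13, lower), which carries FOXO proteins out of the nucleus.

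Genes known to be induced by FOXO factors did not move as a block. Of 40 listed, 36 matched and 33 were tested, of which 10 were higher, 4 lower and 19 not called (42.4% called, against 28.4% of all genes), with a median log2 fold change of 0.0031. Bnip3, a mitochondrial receptor for autophagy, was at 43.5, 46.3 and 43.0 CPM in NC 1, 2 and 3, against 61.4, 57.3 and 58.7 CPM in siPUM2 1, 2 and 3, a 1.34-fold rise with a wide gap between the groups (adjusted p = 7.49e-08, edgeR). Becn1, the Beclin-1 subunit of the kinase complex that starts autophagosomes, rose 1.14-fold (134 ± 3.21 in NC, 152 ± 3.67 CPM in siPUM2).

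Of the others that rose, all named after their values were seen, Bnip3l (log2 fold change 0.20), the autophagosome coat genes Gabarapl1 (0.18) and Map1lc3b (0.10) and the initiating kinase gene Ulk2 (0.27) act in mitophagy or autophagy. Other genes of the list with such roles did not pass, among them Pik3c3 (0.18), Ulk1 (0.07), Pink1 (0.05), Atg14 (0.02) and Atg12 (-0.12, with all siPUM2 libraries below NC). Cited2 (0.13) and S1pr1 (1.08) also rose, S1pr1 from a low level of 1.75 ± 0.0474 to 3.70 ± 0.445 CPM (SD, n = 3). Rbl2 (0.22) lost its call without any of the NC libraries or siPUM2 2 (highest adjusted p = 0.320), and Prdx3 (0.08) without NC 1, NC 2, siPUM2 2 or siPUM2 3 (highest 0.231).

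Of the FOXO-induced genes that fell, Txnip and Gadd45a had the lowest p. Txnip, which binds thioredoxin and limits glucose uptake, was at 42.1, 42.6 and 44.6 CPM in NC 1, 2 and 3, against 35.7, 33.9 and 32.9 CPM in siPUM2 1, 2 and 3, with no overlap (log2 fold change -0.34, adjusted p = 2.33e-05, edgeR). Gadd45a, a stress-induced growth arrest gene that also takes part in muscle atrophy, fell from 29.9 ± 1.53 to 25.0 ± 2.65 CPM (log2 fold change -0.26), against the direction of the ligases. Catalase, Cat (-0.16), and the translation repressor gene Eif4ebp1 (-0.11) also fell, the latter not without NC 3, siPUM2 1 or siPUM2 2 (highest adjusted p = 0.175). The cell cycle inhibitor gene Cdkn1b, also of this list, was at 95.8 CPM in both groups (log2 fold change -0.001, 95% interval 0.957-fold to 1.04-fold).

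**Figure D5:**
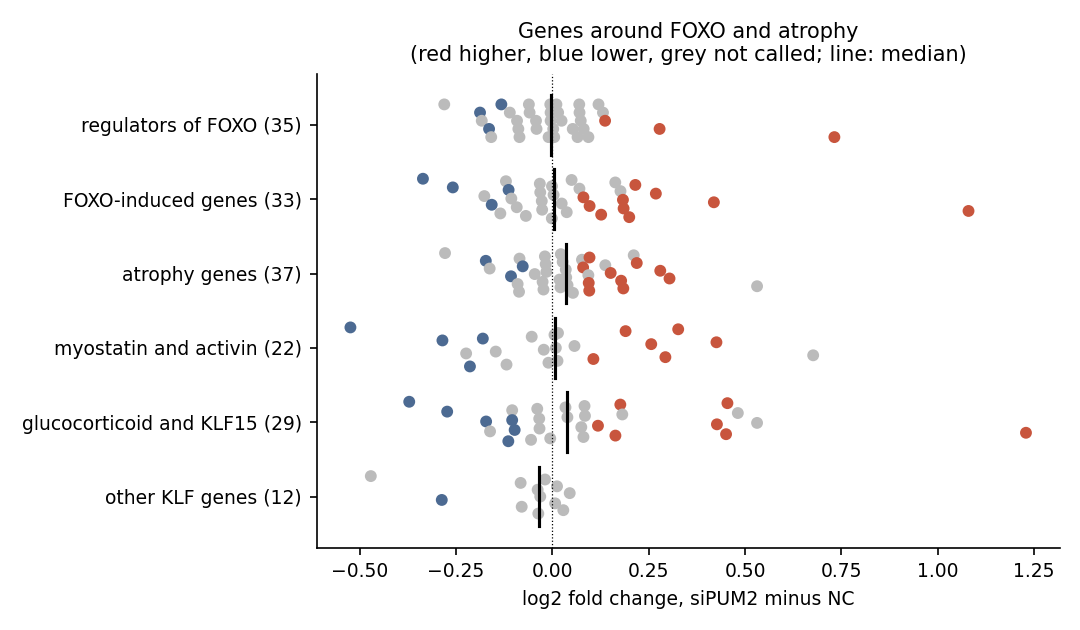
Log2 fold change (x axis, siPUM2 minus NC) of each tested gene in 6 lists, with the number tested in brackets; red points were called higher, blue lower, grey not called, and black lines are medians. Medians of the lists lie between -0.034 and 0.039, and calls go in both directions in the 5 upper lists.

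Calls among other genes tied to muscle atrophy went both ways, again by small amounts. Of 40 listed genes of ubiquitin ligases, ubiquitin carriers, proteases and related factors, 39 matched and 37 were tested. Of these, 10 were higher, 3 lower and 24 not called (35.1% called, against 28.4% of all genes). The median log2 fold change of the list was 0.035. Across all genes tested, 15.1% were called higher and 13.3% lower, and whether the list differs from that was not tested. Ube2b, a ubiquitin-conjugating enzyme long known to rise in wasting muscle, was at 88.6, 88.1 and 87.5 CPM in NC 1, 2 and 3, against 112, 104 and 110 CPM in siPUM2 1, 2 and 3. The groups were clear of each other and the rise was 1.23-fold (adjusted p = 1.58e-08, edgeR). Cast, which encodes calpastatin, the inhibitor of the calpain proteases, rose 1.11-fold, and the calpain genes Capn2 (log2 fold change 0.10), Capns1 (0.09) and Capn1 (0.10) rose too. The call of Capn1 was lost without NC 2 or siPUM2 1 (highest adjusted p = 0.134, edgeR).

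The nearest relatives of Trim63 did not pass the test. Trim55, which encodes MuRF2, was at 156 ± 1.81 CPM in NC and 154 ± 0.868 CPM in siPUM2 (log2 fold change -0.02, 95% interval 0.952-fold to 1.03-fold), and Trim54, of MuRF3, was at 1.22 ± 0.166 and 1.10 ± 0.0868 CPM (not called). Whether Trim63 differed from them in its response was not tested. The intervals of Trim63 (1.11-fold to 1.33-fold) and Trim55 do not meet. Among F-box genes of atrophy, Fbxo30, which encodes MUSA1, rose (log2 fold change 0.22) but not without NC 2 or siPUM2 3 (highest adjusted p = 0.0531, edgeR). Fbxo31 rose (0.18) but not without NC 2, siPUM2 1 or siPUM2 3 (highest 0.111), and Fbxo21 did not pass (0.14). The ligase gene Ubr2 (0.18) and the ubiquitin carrier gene Ube2g1 (0.28) rose. Runx1, a transcription factor induced in denervated muscle, fell (-0.17, adjusted p = 3.60e-05, edgeR), as did Eif3f, an initiation factor subunit that atrogin-1 targets (-0.11, adjusted p = 0.00272). Psmd11 of the proteasome also fell (-0.08), but not without NC 1, NC 3, siPUM2 1 or siPUM2 2 (highest 0.185). The ubiquitin ligase and calpain genes beyond Ube2b and Cast, and Psmd11, were named after their values were seen.

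Genes of the myostatin and activin pathway passed in both directions. Of 30 listed genes 27 matched and 22 were tested, of which 6 were higher, 4 lower and 12 not called (45.5% called, against 28.4% of all genes), with a median log2 fold change of 0.0072. Without siPUM2 1, 6 of these genes were called in place of 10. Gdf11, the closest relative of myostatin, was at 59.7, 56.8 and 61.3 CPM in NC 1, 2 and 3, against 74.0, 76.2 and 72.6 CPM in siPUM2 1, 2 and 3. Every knockdown library was well above the controls, a rise of 1.25-fold (adjusted p = 2.02e-07, edgeR). Fst, which encodes follistatin, a secreted protein that binds and blocks myostatin, activins and GDF11, was far more abundant, at 622 ± 19.6 CPM in NC, and rose 1.23-fold to 763 ± 25.1 CPM (adjusted p = 3.05e-09). A ligand gene and the gene of its inhibitor were thus both higher.

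Of the enzymes that process the ligands, Tll1 (log2 fold change 0.43) and Bmp1 (0.19) rose and Furin (0.06) and Pcsk5 (-0.22) were not called, all named after their values were seen. Receptor genes went both ways. Acvr2a, a receptor of activins and myostatin, fell from 24.1 ± 1.26 to 20.8 ± 1.36 CPM (log2 fold change -0.21, adjusted p = 0.0104, edgeR; 0.0646 without siPUM2 2), and the coreceptor gene Tgfbr3 fell from 34.1 ± 0.250 to 28.0 ± 2.18 CPM (-0.29). Acvr2b, the main myostatin receptor, was at 6.87, 7.19 and 6.95 CPM in NC and 8.51, 8.39 and 8.21 CPM in siPUM2, called higher with all libraries (adjusted p = 0.0436) but not when any of the 6 was left out (highest 0.117). Smad2 (-0.02) and Smad4 (0.01) were not called. Smad7 was called lower, but not without NC 2, NC 3 or siPUM2 1 (highest adjusted p = 0.177, edgeR). Bambi was also called lower, and kept its call only without NC 2 (highest 0.0976). Ltbp3 was called higher, but not without NC 1, NC 2, siPUM2 1 or siPUM2 2 (highest 0.303). The SMAD genes, Bambi and Ltbp3 were named after their values were seen.

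Genes around the glucocorticoid receptor were examined because glucocorticoids induce Klf15 and because the Trim63 window printed above holds the inverted arms. The list joined the receptor genes with their chaperones, glucocorticoid-induced genes, and amino acid catabolism genes under KLF15. Of 31 listed genes 29 were tested, of which 7 were higher, 6 lower and 16 not called. This was 44.8% called, against 28.4% of all genes, with a median log2 fold change of 0.039. Called lower were Hsd11b1, Bckdhb and the chaperone genes Hsp90aa1, Hsp90ab1, Fkbp4 and Ptges3. Called higher were the receptor genes Nr3c1 and Nr3c2, Prodh1, and the glucocorticoid-induced Dusp1, Tsc22d3, Per1 and Zbtb16. Other glucocorticoid-induced genes, among them Fkbp5, were not called. Dusp1, a phosphatase that glucocorticoids and many stresses induce, was at 57.1, 52.9 and 56.7 CPM in NC 1, 2 and 3, against 78.3, 76.0 and 73.4 CPM in siPUM2 1, 2 and 3. It was higher in every knockdown library and rose 1.37-fold (adjusted p = 1.27e-09, edgeR). Tsc22d3, which encodes the glucocorticoid-induced leucine zipper GILZ, rose 1.12-fold (85.7 ± 3.17 in NC, 96.0 ± 0.880 CPM in siPUM2, adjusted p = 0.00023), and Per1 rose by a log2 fold change of 0.18.

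Among the remaining genes of the list, calls went both ways. The mineralocorticoid receptor gene Nr3c2, whose product also binds glucocorticoids, was called higher (log2 fold change 0.45, adjusted p = 0.00109, edgeR), and so was Zbtb16 (0.43), though not without NC 2, NC 3 or siPUM2 2 (highest adjusted p = 0.0857). Fkbp5, a strongly glucocorticoid-induced cochaperone of the receptor, was at 78.1 ± 1.56 CPM in NC and 77.8 ± 0.594 CPM in siPUM2 (log2 fold change -0.0055, 95% interval 0.951-fold to 1.04-fold). Hsd11b1, the enzyme that regenerates active glucocorticoid inside cells, fell from 50.9 ± 1.60 to 39.4 ± 1.10 CPM (-0.37, adjusted p = 1.39e-06, edgeR). Hsp90aa1, a chaperone that holds the receptor ready to bind hormone, fell from 435 ± 4.12 to 386 ± 3.76 CPM (-0.17, adjusted p = 3.37e-06), and Hsp90ab1 (-0.11), Fkbp4 (-0.10) and Ptges3 (-0.10), which act with it, fell as well. The receptor gene Nr3c1 was called higher (0.12), but not without NC 1, NC 2, siPUM2 2 or siPUM2 3 (highest adjusted p = 0.108).

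Amino acid catabolism genes that KLF15 is known to control showed no common direction. Bcat2, of branched-chain amino acid breakdown, was not called (log2 fold change 0.08). Prodh1, of proline breakdown, had 13, 12 and 15 counts in NC 1, 2 and 3 and 37, 38 and 15 counts in siPUM2 1, 2 and 3. It was called higher (log2 fold change 1.23, adjusted p = 0.00944, edgeR), yet siPUM2 3 had no more counts than NC 3, and the call was lost without siPUM2 1 or siPUM2 2 (highest adjusted p = 0.0783). Bckdhb, a subunit of the branched-chain ketoacid dehydrogenase, fell (-0.27). Except for the genes with the lowest p in each direction (Dusp1, Tsc22d3, Hsd11b1 and Hsp90aa1), the genes of this list were named after their values were seen.

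Of the Krüppel-like factors besides Klf15, a single gene passed. Of 17 other members listed, 13 matched and 12 were tested, of which none was higher, 1 was lower and 11 were not called (8.33% called, against 28.4% of all genes), with a median log2 fold change of -0.034. At an unadjusted p under 0.05 the count was also 1. The gene that fell was Klf10, known to be induced by TGF-beta, at 26.9, 27.0 and 26.4 CPM in NC 1, 2 and 3, against 22.7, 22.4 and 20.7 CPM in siPUM2 1, 2 and 3 (log2 fold change -0.29, adjusted p = 0.000374, edgeR). Klf9, like Klf15 a glucocorticoid-induced member, was at 17.1 ± 1.26 and 17.2 ± 0.294 CPM. Klf15 itself, at 1.30 ± 0.175 CPM in NC and 1.32 ± 0.0139 CPM in siPUM2, was above only Klf1 (0.694) and Klf13 (0.619 CPM over the 6 libraries) of the family members tested. That order is in CPM, which is not scaled to length, and is not an order of level per length.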

How the data were processed

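Messenger RNA was sequenced in 3 siPUM2 and 3 NC libraries of H9C2 cells. Directional paired-end libraries were made from polyadenylated RNA, per the labels' protocols. HISAT2, DESeq2 and build mRatBN7.2 appear in the submitters' processing notes, without versions. Which annotation and counting program were used is not given in the sources used here. Both deposited tables hold all libraries: one has raw counts in whole numbers, and the other has the FPKM of the authors, rounded to 2 decimals.

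The test was edgeR 4.0.16 (quasi-likelihood, R 4.3.3) on the counts, with TMM scaling, filterByExpr and a model of the group alone. The filter left 12985 genes and removed 6840 with 0.0465% of the counts. All 6 members found passed it. The Benjamini-Hochberg adjustment ran over all of these genes. SEs come from the F statistic, and 95% intervals from the moderated degrees of freedom. Members and lists were chosen with earlier results of these data known. Of 194 list entries (3 genes stand in 2 lists), the tables held 179 under the same symbol and 2 under an older one, and 13 were not found. From each list the 2 called genes of lowest p in each direction, with a mean of at least 1 CPM, were named by rule. Alternatives were other scalings, DESeq2 1.42.0, limma 3.58.1 (voom, and log2(FPKM + 1) or log2(FPKM + 0.1)), other filters, a stricter threshold, the replicate block and each library left out. Promoter windows are from RefSeq, build GRCr8, and were matched by symbol.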

Additional observations from a re-analysis of the deposited data

How the results depend on the processing

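Foxo1, Foxo3, Foxo4 and Trim63 kept their direction and their side of the threshold under all 17 alternatives run (adjusted p for Trim63 from 0.000141 to 0.0485). Over the left-out libraries the log2 fold change was 0.59 to 0.80 for Fbxo32 and -0.0697 to 0.12 for Klf15, which was -0.0697 without NC 1 and -0.0052 without NC 3. Fbxo32 was at 0.70 with DESeq2 (adjusted p = 0.0965). The number of members called was 1 with DESeq2 and at an adjusted p under 0.01, and 1 to 2 over the left-out libraries. On FPKM without a filter, with pseudocounts of 1 and 0.1, 8 and 9 of the FOXO-induced genes, 7 and 7 of the atrophy genes, 5 and 5 of the myostatin and activin genes and 2185 and 2227 of all genes were called. The myostatin and activin count was 6 with DESeq2, 5 on log2(FPKM + 1) at a mean FPKM of at least 1, 5 at an adjusted p under 0.01 and 6 to 9 over the left-out libraries. The causes were not tested. For 64 other genes, the called genes of the lists and muscle markers with Pum2, 934 of 1080 values kept their call, 146 lost it and 0 turned. The labels do not say that same-numbered libraries share more than a number. Their correlations of deviations were 0.0342, 0.0204 and 0.0027, and the highest of all pairs was NC 3 with siPUM2 2 (0.0370). Such values over 3 libraries per group cannot decide whether a culture or day was shared. With the replicate block 3731 genes were called, and Fbxo32 was at 0.71 (adjusted p = 0.0321) and Trim63 at 0.28 (0.00157). The counts of Fbxo32 and Klf15 limit what can be seen in them.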
